A study of Sus scrofa with 95 samples.

Results

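The genes described here are 27 of the 35670 rows of the deposited pig expression table: the 4 rows whose symbol begins with SLA- (swine leukocyte antigen, the pig's major histocompatibility complex, MHC) and 23 rows named in a list of interferon gamma and antigen presentation genes. Of the 27, 26 carry their symbol in the deposited table and 1, GBP2, was named from its gene ID (ENSSSCG00000006923) through a gene ID table. The rule that picks them uses names and no values, but the set was proposed with earlier results of these data known. They were measured by RNA sequencing in 5 tissues of 19 infant pigs of 5 to 10 kg: lung (right lower lobe), liver, kidney cortex, terminal ileum and heart (left ventricle). Control animals (8, of which 4 were male) had anesthesia alone and no drug. The second arm (7 animals, 4 male) had cardiopulmonary bypass (CPB), in which a machine takes over the work of heart and lungs, with deep hypothermic circulatory arrest, a stop of the cooled circulation, for 75 min and no drug. The third arm (4 animals, 2 male) had the same CPB and arrest with 75 mg of linrodostat, an inhibitor of IDO1, which catalyses the first step from tryptophan to kynurenine. The labels give no ages, strain or genotype, and there was no group that received linrodostat without CPB.

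Interferon gamma is released by T cells and natural killer cells and binds a receptor made of IFNGR1 and IFNGR2, which signals through the kinases JAK1 and JAK2. The signal induces IRF1, and with it genes that cut proteins into peptides (the immunoproteasome), carry the peptides into the endoplasmic reticulum (TAP1, TAP2) and load them on MHC class I molecules, a program in which NLRC5 is the master activator. CIITA plays the same part for MHC class II, which dendritic cells, macrophages and B cells use to present peptides from engulfed material, and which other cell types take up under interferon gamma.

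The 95 libraries held 19956859 to 53627723 counts (median 35114855), and those of heart at most 27219451. Sums of 7 identity markers per organ matched the labelled organ in heart, kidney, liver and lung: the lowest heart library held 54311 CPM of heart markers (CPM are counts scaled to a fixed library total) against 348 in the highest library of another organ, and the marker sums of kidney, liver and lung likewise lay above those of all other libraries. The 7 ileum markers did not separate ileum, at 1556 CPM in the lowest ileum library and up to 5101 CPM in a liver library. That list holds APOB, which liver makes too, and without APOB the lowest ileum library held 1554 CPM and the highest library elsewhere 186. All heart libraries carry batch label 2 and all others batch label 1, so for heart the organ and the batch cannot be told apart. Kidney and ileum were taken before euthanasia and heart, liver and lung after it, per the labels' protocols, in every arm, so organ and moment of harvest cannot be told apart either. Every one of the 27 genes passed the filter on low counts in every organ. Their lowest count in any library was 3 (GBP5) and the highest 298976 (CD74).

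Control animal 15 stood apart and is described before the results, because it touches all comparisons with the control arm. Its library was the highest of the 8 control libraries for 20 of the 27 genes in heart, 26 in kidney, 17 in liver and 25 in lung, against 14.3, 22.4, 15.1 and 21.3% of all genes tested. In ileum it was the highest for 7 of 27 (9.93% of all genes). Against the median of the other 7 controls the median gene of the 27 was at 2.03 times in heart, 0.94 times in ileum, 2.96 times in kidney, 1.47 times in liver and 1.62 times in lung, while the median of all genes lay between 0.99 and 1.02. The largest ratio was 6.98, for PSMB9 in kidney. In the same animal the sum of T and NK cell marker genes was the highest of the control arm in all 5 organs, for example 802 CPM in kidney against a median of 135 CPM over the 8 controls. For comparisons with the control arm the counts of members called, and the calls that this animal decides, are therefore also given without it. Among the treated animals, number 18 of the linrodostat arm was the highest of its 4 for 23 of 27 genes in heart, 24 in kidney, 22 in lung, 19 in liver and 5 in ileum, against 25.0, 28.2, 26.7, 23.9 and 24.7% of all genes.

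**Figure D1:**
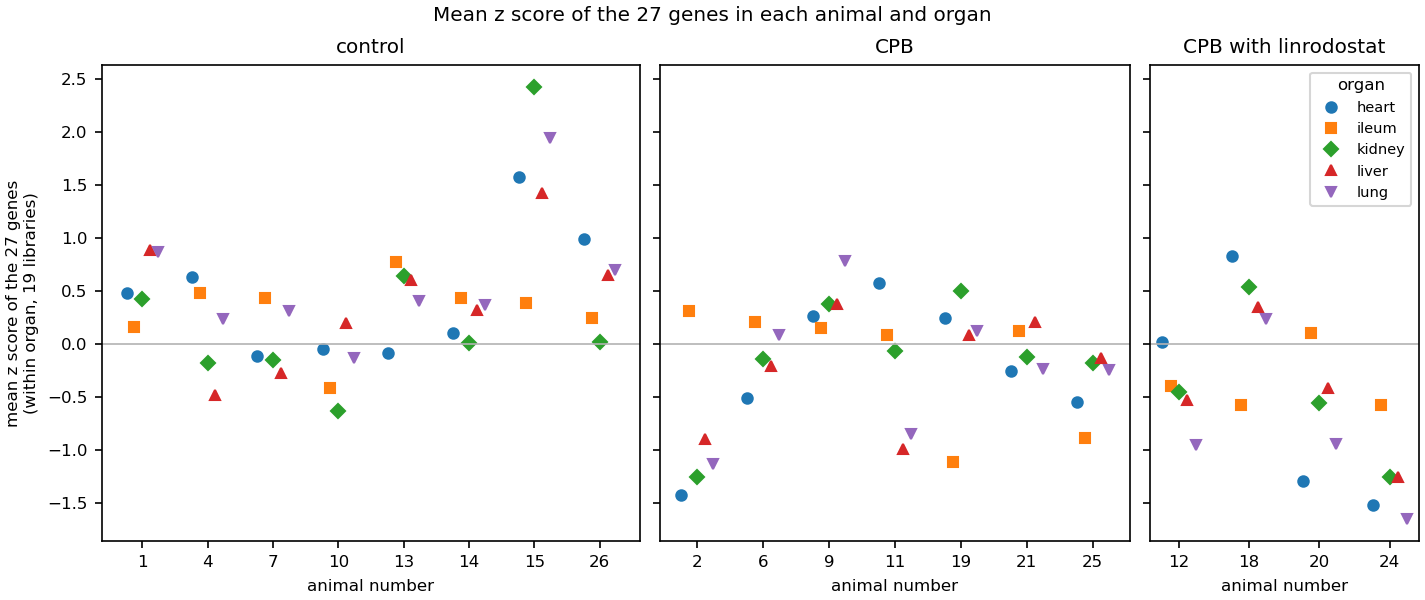
Mean z score of the 27 genes in each animal (x axis, animal number) and organ (marker), where the z score of a gene is taken over the 19 libraries of an organ on log2 CPM. Control animal 15 has the highest score in heart, kidney, liver and lung (up to 2.43 in kidney), and linrodostat animal 24 the lowest in its arm in all 5 organs.

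On chromosome 7, 8 of the members lie close together by RefSeq positions on Sscrofa11.1, the assembly that the submitters' processing notes name. These 8 lie between the start of SLA-DQB1 and the end of SLA-DOA, chr7:24969034-25182665, in the order SLA-DQB1, TAP2, PSMB8, TAP1, PSMB9, SLA-DMB, SLA-DMA and SLA-DOA. TAP1 (chr7:25062772-25071989) and PSMB9 (chr7:25072133-25077508) are 143 bases apart. The regulators lie elsewhere: IRF1 at chr2:134776122-134783646, CIITA at chr3:32171706-32230775, NLRC5 at chr6:18933179-19036288 and IRF8 at chr6:3041617-3060685. GBP1 (chr4:127425699-127442132) and GBP2 (chr4:127387222-127408729) share a stretch of chromosome 4. The guanylate-binding proteins are close copies of each other, so the split of reads among GBP1, GBP2 and GBP5 is uncertain. Class I heavy chains are not analysed here.

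In control animals the 27 genes were high in ileum and lung and low in heart and kidney. This was tested as each control organ against the mean of the other 4, in a fit of all 95 libraries, where counts were scaled across organs. Ileum was higher for 24 genes and lower for 0 (33.4 and 28.8% of all genes tested), and lung higher for 17 and lower for 0 (31.4 and 26.9%). Kidney was lower for 25 and higher for 0 (26.6 and 31.1%), heart lower for 22 and higher for 0 (38.2 and 28.7%), and liver higher for 5 and lower for 10 (31.5 and 32.6%). With the animal as a block, which pairs the organs of 1 animal, lung was lower for 1 gene, PSME1. Without control animal 15 the numbers higher and lower were 25 and 0 in ileum, 18 and 0 in lung, 0 and 25 in kidney, 0 and 22 in heart and 6 and 10 in liver.

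The highest mean was in ileum for 16 genes, in lung for 8 and in liver for 3. Ileum led for the guanylate-binding proteins, interferon-inducible GTPases that attack vacuoles holding microbes: GBP1 stood at 1011 ± 415 CPM in ileum (mean ± SD, n = 8) and 155 ± 159 in kidney, and GBP5 at 24.2 ± 23.1 and 1.86 ± 1.02. Lung led for 6 of the 7 class II genes, and ileum for IFI30. CD74, the invariant chain that guides class II molecules, averaged 4352 ± 896 CPM in lung, 3003 ± 988 in ileum, 1161 ± 410.2 in heart, 1158 ± 281 in liver and 1131 ± 598 in kidney, with the last 3 not apart beyond their spread. CIITA followed with 115 ± 28.02 CPM in lung, 67.3 ± 25.1 in ileum, 36.0 ± 13.5 in kidney, 35.6 ± 8.98 in heart and 24.1 ± 2.18 in liver. Liver led for B2M, the light chain of class I, at 3681 ± 824 CPM against 2326 ± 829.3 in lung, for the proteasome activator PSME2, and for IFNGR2 at 148 ± 37.9 CPM against 19.5 ± 6.72 in kidney. For 4 genes (SLA-DMB, CTSS, GBP2 and ERAP1) every library of the leading organ lay above every library of the second organ. For the other 23 the first and second organ overlapped.

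**Figure D2:**
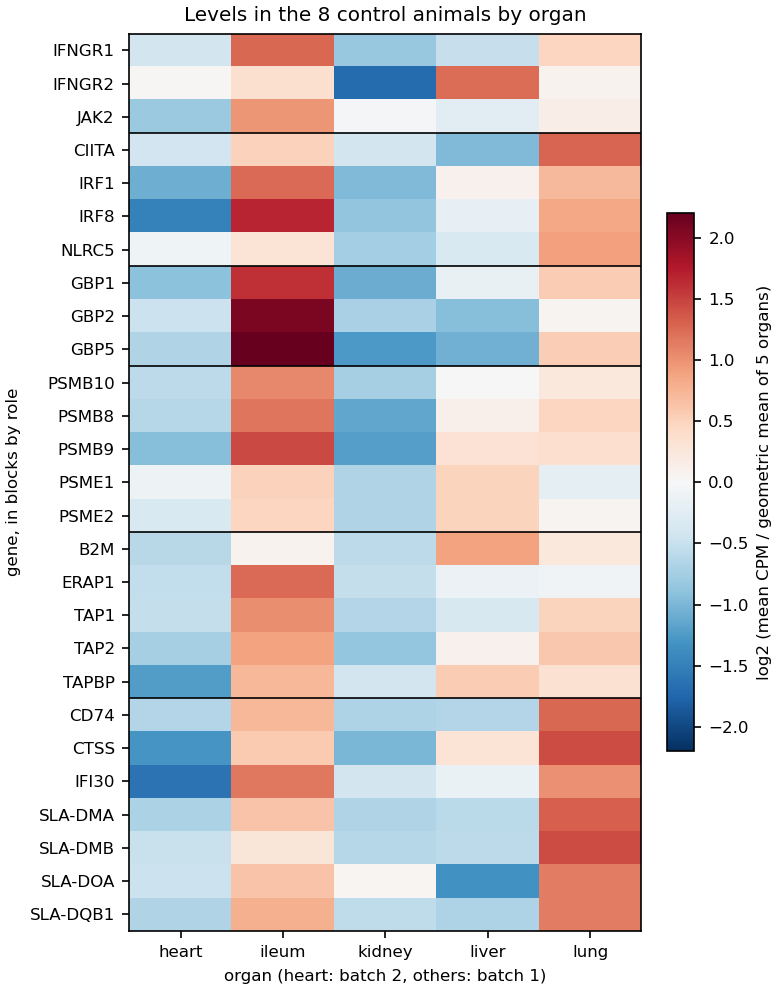
Level of the 27 genes (rows, in blocks by role) in the 5 organs (columns) of the 8 control animals, as log2 of the mean CPM over the geometric mean of the 5 organs. Red cells are above a gene's mean over organs and blue cells below it, with red concentrated in ileum and lung. In heart, organ and batch cannot be told apart.

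The first comparison of arms is CPB with arrest against anesthesia alone. The genes leaned down in the CPB animals in every organ, and the transcription regulators and class II genes passed the test most often. The number lower was 9 of 27 in liver (against 11.3% of all genes tested), 3 of 27 in lung (2.62%), 3 of 27 in kidney (9.86%), 2 of 27 in heart (5.53%) and 0 in ileum (0%). A single gene was higher, IFNGR2 in kidney (11.3%), and 0 were higher in heart (6.39%), ileum (0%), liver (15.6%) and lung (2.08%). The shares lower in heart and kidney are near those of all genes, and the share in liver is above. In lung the count ran from 0 (without CPB animal 19 or 25) to 6 (without CPB animal 9) when 1 animal was left out. Here and below a gene is called where its adjusted p from edgeR's quasi-likelihood F test is under 0.05, adjusted over all genes tested in the organ, and fold changes are log2 values with their standard error.

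Most of the lean lay in values that did not pass the test. The log2 fold change was below 0 for 25 of 27 genes in heart, 25 in lung, 24 in kidney, 23 in ileum and 22 in liver, against 51.5, 48, 52.4, 53.7 and 52.2% of all genes. The median over the 27 was -0.44, -0.47, -0.46, -0.17 and -0.57 in that order, where the median over all genes was -0.02, 0.01, -0.03, -0.02 and -0.03. With animal 15 left out of the controls the medians were -0.33, -0.39, -0.14, -0.17 and -0.43, and the number lower was 6 in liver (9.44% of all genes), 2 in kidney (9.19%), 1 in lung (2.12%), 0 in heart (4.44%) and 0 in ileum (0%). In kidney, 16 of 27 genes were then below 0. The 5 organs and the 27 genes come from the same animals, so these counts are not independent of each other. Each organ was refitted under 24 alternatives: 5 other settings (size factors, no filter, DESeq2, only the arms compared, sex as a covariate) and each of the 19 animals left out in turn. The number lower then ran from 6 to 11 in liver, 0 to 7 in lung, 2 to 7 in kidney and 0 to 5 in heart, and 6 of the 9 calls in liver (IRF1, IRF8, CD74, CIITA, SLA-DMA, SLA-DMB) and 2 of the 3 in kidney (CIITA, SLA-DOA) held in all 24. In these bulk samples fewer cells of a type and less RNA per cell cannot be told apart.

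**Figure D3:**
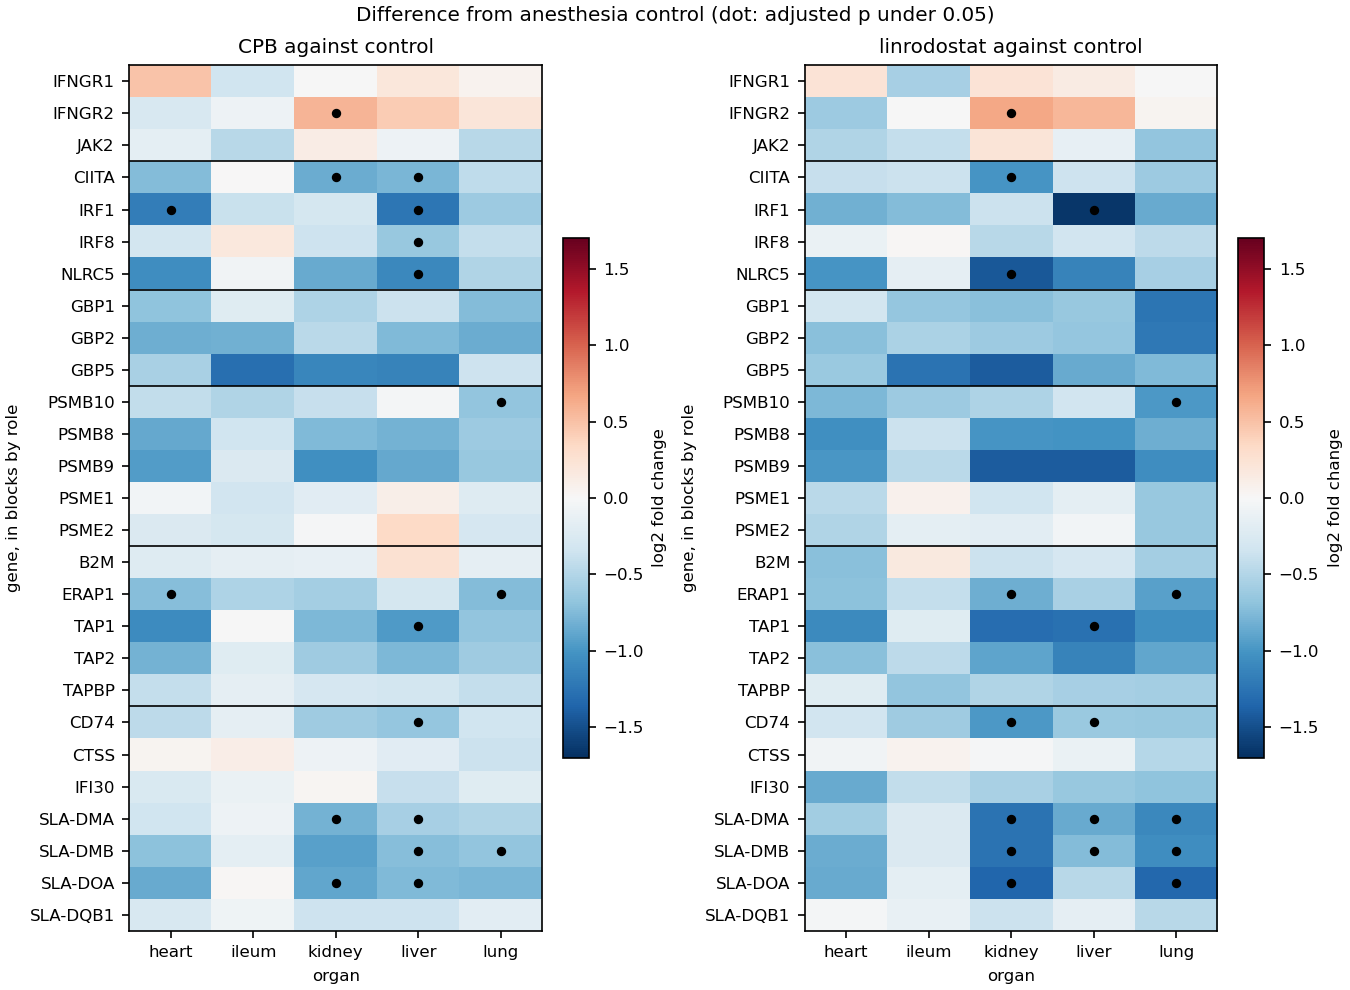
Log2 fold change of the 27 genes (rows, in blocks by role) in 5 organs (columns) for CPB against control (left) and linrodostat with CPB against control (right). Blue is lower than in the 8 controls, red higher, and a dot marks an adjusted p under 0.05. Both panels share their control libraries. Dots lie in liver, kidney and lung, with 2 in heart and 0 in ileum in the left panel.

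Of the 3 receptor and kinase genes 1 passed the test, upward. IFNGR2, the receptor chain that brings JAK2 to the complex, stood at 18.0 to 46.1 CPM (median 21.4) in control kidneys and 29.0 to 59.5 CPM (median 33.5) in CPB kidneys. Every CPB kidney was above the control median, and the groups overlapped only through control animal 15 at 46.1 CPM. The gene was higher by 0.58 ± 0.19, adjusted p = 0.0355, and without that animal by 0.76, adjusted p = 0.00194. The call held in 14 of 24 alternatives, and was lost on leaving out any of 10 animals, CPB animal 19 most of all (0.41, adjusted p = 0.119). In liver IFNGR2 was at 109.8 ± 42.3 CPM (SD, n = 7) against 81.4 ± 21.2 CPM (SD, n = 8) in controls (0.43 ± 0.20, adjusted p = 0.116), which did not pass the threshold. In heart IFNGR2 leaned the other way (-0.27), at 26.5 to 69.9 CPM in CPB animals against 33.1 to 75.5 CPM in controls, with overlap. It was not called in heart, lung or ileum. IFNGR1, the ligand-binding chain, was not called in any organ, with fold changes of 0.49 ± 0.18 in heart, -0.33 ± 0.23 in ileum, -0.01 ± 0.16 in kidney, 0.06 ± 0.07 in lung and 0.19 ± 0.16 in liver. In heart its CPB values were 27.4 to 64.3 CPM (median 33.2) and its control values 17.6 to 31.2 CPM (median 25.2), with the highest CPB value in animal 19. The groups overlapped. JAK2 was between -0.47 (ileum) and 0.12 (kidney) and not called.

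IRF1, a transcription factor that interferon gamma induces early, gave the largest fall among the calls. In liver the control animals had 39.6 to 96.8 CPM (median 65.7) and the CPB animals 10.2 to 36.2 CPM (median 31.7). All 7 CPB livers were below all 8 control livers, which was so in this direction for 1.16% of all genes. The fold change was -1.23 ± 0.29, adjusted p = 0.00537, and -1.13, adjusted p = 0.0123 without control animal 15. In heart the controls had 21.4 to 82.2 CPM (median 30.3), where the highest is animal 15 and the next is 35.0, and the CPB animals 8.50 to 21.2 CPM (median 15.8). Again all 7 were below all 8 (1.24% of all genes), and the fold change was -1.18 ± 0.35, adjusted p = 0.0356. Without control animal 15 the 2 groups in heart still did not overlap, but the gene missed the threshold (-0.89, adjusted p = 0.0734). IRF1 was not called in lung, at 122 to 226 CPM (median 166) against 193 to 401 CPM (median 252) in controls (-0.61 ± 0.21, adjusted p = 0.0890), or in kidney, at 26.7 to 90.8 CPM (median 59.1) against 42.1 to 172 CPM (median 59.9) (-0.30 ± 0.29, adjusted p = 0.480), where the fold change without control animal 15 was 0.01. In ileum it had -0.38 ± 0.36, adjusted p = 1.00. The call in liver held in 24 of 24 alternatives, and the call in heart held in 18 of 24 alternatives.

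CIITA, the switch for class II genes, was at 34.4 to 89.3 CPM (median 39.1) in control kidneys and 14.8 to 32.1 CPM (median 25.5) in CPB kidneys. The groups did not overlap (all lower, 1.33% of all genes), the fold change was -0.85 ± 0.21, adjusted p = 0.00942, and it was -0.65, adjusted p = 0.0124 without control animal 15. In liver CIITA was at 10.7 to 15.0 CPM (median 13.4) in controls and 4.55 to 11.05 CPM (median 8.31) in CPB animals, with 6 of the 7 CPB livers below all controls (-0.78 ± 0.21, adjusted p = 0.0108; without control animal 15 -0.75, adjusted p = 0.0208). It was not called in heart, where CPB values of 8.11 to 21.2 CPM (median 15.0) overlapped with control values of 18.3 to 34.6 CPM (median 22.6) (-0.73 ± 0.24, adjusted p = 0.0547). Nor was it called in lung, at 77.4 to 154 CPM (median 127) against 111 to 233 CPM (median 160.5) (-0.43 ± 0.21, adjusted p = 0.231), or in ileum, at 29.7 to 139 CPM (median 92.3) against 43.0 to 149 CPM (median 95.1) (0.00 ± 0.35, adjusted p = 1.00).

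NLRC5, its counterpart for class I, was lower in liver, with 14.9 to 60.4 CPM (median 23.9) in controls and 6.79 to 19.0 CPM (median 14.2) in CPB animals, all 7 of them below the control median. That call (-1.09 ± 0.34, adjusted p = 0.0243) was lost without control animal 15 (-0.85, adjusted p = 0.0581). In heart NLRC5 was at 9.88 to 28.3 CPM (median 21.1) against 22.6 to 91.6 CPM (median 36.1) in controls (-1.06 ± 0.35, adjusted p = 0.0515), in lung at 99.6 to 157 CPM (median 124) against 129 to 226 CPM (median 182) (-0.51 ± 0.16, adjusted p = 0.0696), in kidney at 11.3 to 41.3 CPM (median 25.8) against 27.9 to 127 CPM (median 38.8) (-0.86 ± 0.34, adjusted p = 0.0790) and in ileum at 80.8 to 161 CPM (median 97.0) against 58.6 to 163 CPM (median 110.1) (-0.06 ± 0.30, adjusted p = 1.00). The groups overlapped in all 4 of these organs and the gene was not called. IRF8, a factor of macrophages and dendritic cells, was lower in liver, at 10.1 to 15.5 CPM (median 14.5) in CPB animals against 15.0 to 25.6 CPM (median 20.8) in controls (-0.64 ± 0.15, adjusted p = 0.00532; without control animal 15 -0.63, adjusted p = 0.0105). In liver, then, 4 of 4 regulators were lower with all controls, the call of NLRC5 resting on control animal 15.

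**Figure D4:**
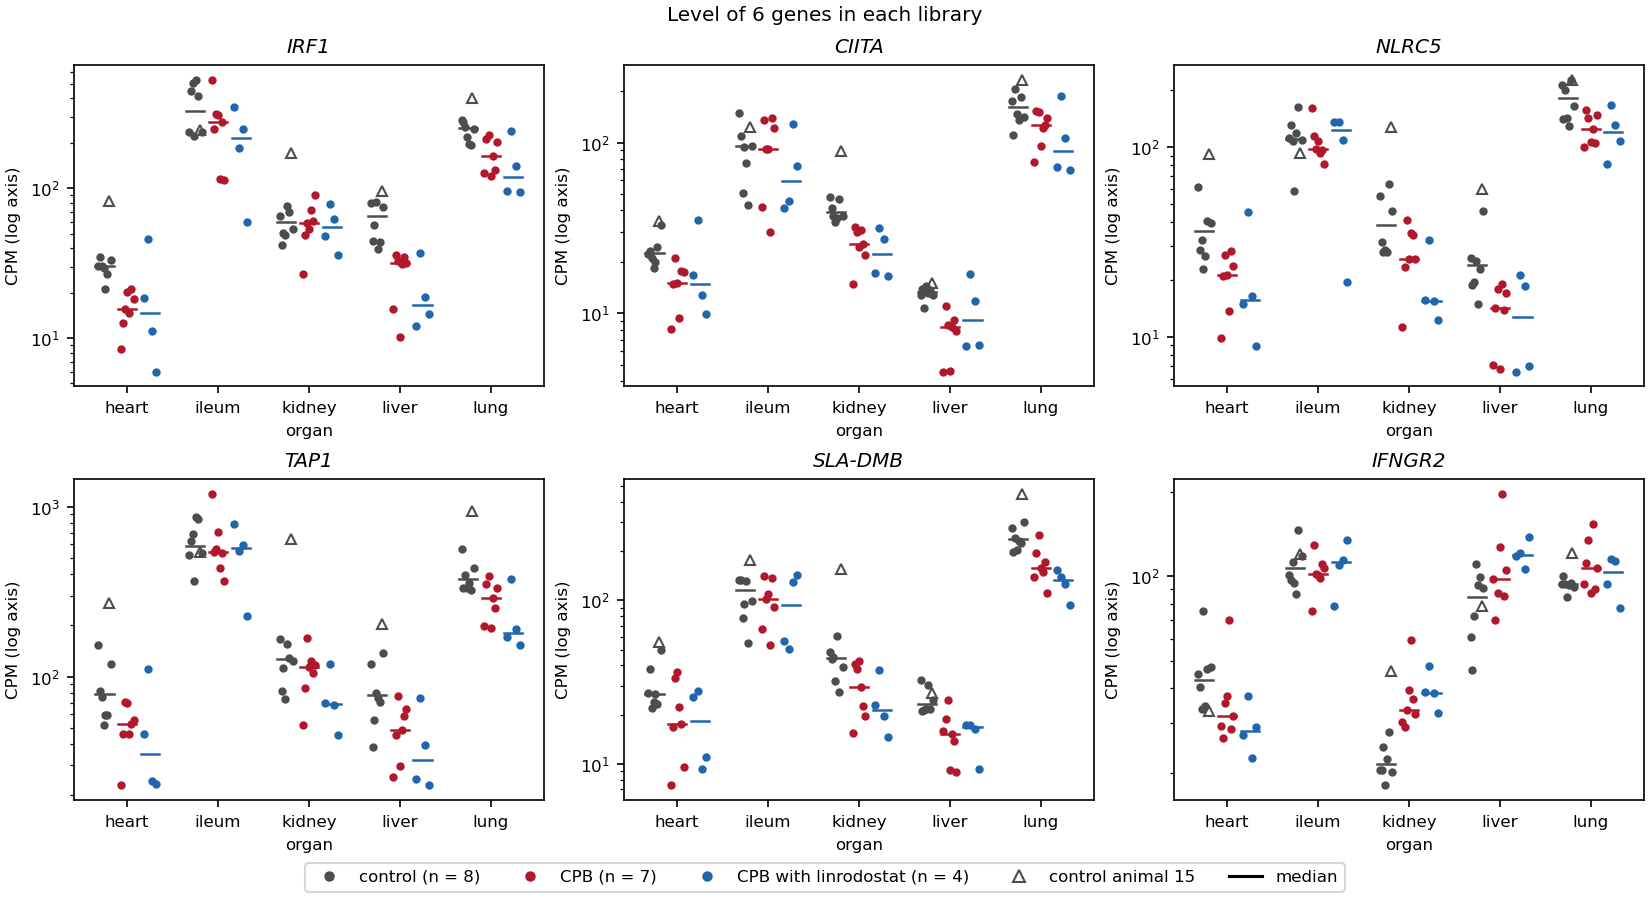
CPM of IRF1, CIITA, NLRC5, TAP1, SLA-DMB and IFNGR2 in each library by organ, on a log axis, with control, CPB and linrodostat animals side by side and a line at each group's median. Open triangles mark control animal 15. CPB values of IRF1 in heart and liver and of CIITA in kidney lie below all control values, and those of IFNGR2 in kidney above the control median.

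Guanylate-binding proteins were below 0 in all 5 organs and called in 0. GBP1 had fold changes of -0.68, -0.20, -0.53, -0.37 and -0.74 in heart, ileum, kidney, liver and lung, and the smallest adjusted p among the 3 genes and 5 organs was 0.0684 (GBP5 in kidney). In lung, GBP1 was at 521 to 1179 CPM (median 645) in controls and 190.2 to 585 CPM (median 458) in CPB animals, with all 7 below the control median (-0.74 ± 0.34, adjusted p = 0.208).

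Among the proteasome genes 1 was called. PSMB10, an immunoproteasome subunit, was at 80.3 to 178 CPM (median 116) in control lungs and 46.3 to 112 CPM (median 74.2) in CPB lungs. Of the CPB lungs, 6 of 7 lay below all controls, with a fold change of -0.66 ± 0.19, adjusted p = 0.0492, and the call was lost without control animal 15 (-0.55, adjusted p = 0.0818) and held in 5 of 24 alternatives. PSMB9, another catalytic subunit, had fold changes of -0.95 ± 0.45 in heart, -0.25 ± 0.22 in ileum, -1.05 ± 0.54 in kidney, -0.64 ± 0.27 in lung and -0.86 ± 0.44 in liver and was not called (adjusted p 0.156 to 1.00). Its kidney value rested on 1 animal: control kidneys had 7.70 to 112 CPM (median 16.5), the next below animal 15 was 23.8, and the fold change without that animal was -0.21. The activator genes PSME1 and PSME2, which cap the proteasome, lay between -0.32 (PSME1 in ileum) and 0.34 (PSME2 in liver) and were not called.

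In the class I loading group ERAP1 and TAP1 were called. ERAP1, the peptidase that trims peptides in the endoplasmic reticulum, was lower in lung and heart. Control lungs had 61.6 to 129 CPM (median 81.7) and CPB lungs 34.5 to 70.7 CPM (median 46.2), with 5 of 7 below all controls (-0.74 ± 0.18, adjusted p = 0.0240; without control animal 15 -0.63, adjusted p = 0.0398). Control hearts had 20.1 to 40.6 CPM (median 29.9) and CPB hearts 9.14 to 22.9 CPM (median 18.8), all 7 below the control median (-0.73 ± 0.22, adjusted p = 0.0361), and this call was lost without control animal 15 (-0.65, adjusted p = 0.0723). TAP1, a peptide transporter subunit, was lower in liver: 38.6 to 203 CPM (median 77.4) in controls, 25.5 to 77.1 CPM (median 48.5) in CPB animals, overlapping, -0.97 ± 0.34, adjusted p = 0.0430, and -0.72, adjusted p = 0.106 without control animal 15. That call held in 12 of 24 alternatives. TAP1 was not called elsewhere. CPB hearts had 22.9 to 70.6 CPM (median 52.5) against 51.6 to 269.9 CPM (median 78.7) in controls (-1.07 ± 0.40, adjusted p = 0.0831), CPB kidneys 51.7 to 168 CPM (median 114) against 73.9 to 642 CPM (median 126) (-0.76 ± 0.40, adjusted p = 0.183), and CPB lungs 194 to 392 CPM (median 290.0) against 321 to 943 CPM (median 376) (-0.68 ± 0.25, adjusted p = 0.117). In ileum, where CPB animal 2 was the highest of all 19 at 1193 CPM, the fold change was -0.01 ± 0.27, adjusted p = 1.00. The highest control was animal 15 in heart, kidney, liver and lung.

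B2M, the light chain of class I, was measured at 1685 to 3341 CPM (median 2479) in CPB livers against 1474 to 2521 CPM (median 2099.9) in control livers and at 647 to 2589 CPM (median 1470.0) in CPB kidneys against 850.5 to 4431 CPM (median 1366) in control kidneys. In lung it was at 1941 to 4389 CPM (median 3032) against 2192 to 5903 CPM (median 3059), and in heart at 269.6 to 1665 CPM (median 539) against 424 to 1792 CPM (median 702). All these ranges overlapped, and the fold changes were small: -0.21 ± 0.41 in heart, -0.15 ± 0.20 in ileum, -0.14 ± 0.36 in kidney, -0.15 ± 0.22 in lung and 0.26 ± 0.20 in liver, with adjusted p from 0.351 to 1.00. TAP2 and TAPBP, the second transporter subunit and the loading chaperone tapasin, were below 0 in all 5 organs and not called.

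Class II genes passed the test in liver, kidney and lung, all downward. CD74 was at 455 to 880.4 CPM (median 587) in control livers and 307 to 531 CPM (median 405) in CPB livers, where 5 of 7 lay below all controls (-0.65 ± 0.16, adjusted p = 0.00555; without control animal 15 -0.61, adjusted p = 0.0128). In lung, the organ with the most CD74, CPB animals had 4059 to 6865 CPM (median 4465) and controls 5078 to 9190.2 CPM (median 6071) (-0.34 ± 0.15, adjusted p = 0.186), and in kidney 728 to 1426 CPM (median 842) and 792 to 3194 CPM (median 1213) (-0.61 ± 0.25, adjusted p = 0.0944). Both overlapped and neither was called, nor was CD74 in heart (-0.44 ± 0.29, adjusted p = 0.335) or ileum (-0.16 ± 0.28, adjusted p = 1.00). SLA-DMA and SLA-DMB code for the 2 chains of the exchange factor that loads class II molecules with peptide. In liver SLA-DMB was at 21.0 to 32.6 CPM (median 23.1) in controls and 8.86 to 24.5 CPM (median 15.3) in CPB animals, and 6 of 7 CPB livers lay below all controls (-0.72 ± 0.20, adjusted p = 0.0120; without control animal 15 -0.70, adjusted p = 0.0221). SLA-DMA in liver was at 12.9 to 20.1 CPM (median 18.3) in controls and 7.81 to 15.6 CPM (median 12.7) in CPB animals, 4 of 7 below all controls (-0.57 ± 0.16, adjusted p = 0.0153; without control animal 15 -0.57, adjusted p = 0.0248).

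In lung SLA-DMB was at 199 to 449.5 CPM (median 236) in controls and 111 to 250.1 CPM (median 158) in CPB animals, 6 of 7 below all controls (-0.67 ± 0.18, adjusted p = 0.0394), which was lost without control animal 15 (-0.52, adjusted p = 0.0605) and held in 13 of 24 alternatives. SLA-DMA in kidney was at 24.6 to 94.2 CPM (median 31.4) in controls and 12.9 to 34.2 CPM (median 21.4) in CPB animals, 5 of 7 below all controls (-0.81 ± 0.28, adjusted p = 0.0459), also lost without that animal (-0.49, adjusted p = 0.0873) and kept in 11 of 24 alternatives. SLA-DOA codes for a chain of the factor that restrains the exchange. It was at 14.7 to 62.2 CPM (median 22.1) in control kidneys and 9.80 to 18.7 CPM (median 13.6) in CPB kidneys (-0.89 ± 0.26, adjusted p = 0.0202; without control animal 15 -0.57, adjusted p = 0.0216), with 4 of 7 below all controls. In liver it was lower as well, at 1.39 to 3.67 CPM (median 2.67) against 3.13 to 5.37 CPM (median 4.32) (-0.75 ± 0.25, adjusted p = 0.0318; without that animal -0.69, adjusted p = 0.0597). SLA-DQB1, a class II beta chain, lay between -0.35 in kidney and -0.07 in ileum and was not called. The protease CTSS, which trims CD74, and the thiol reductase IFI30 were not called in any organ.

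**Figure D5:**
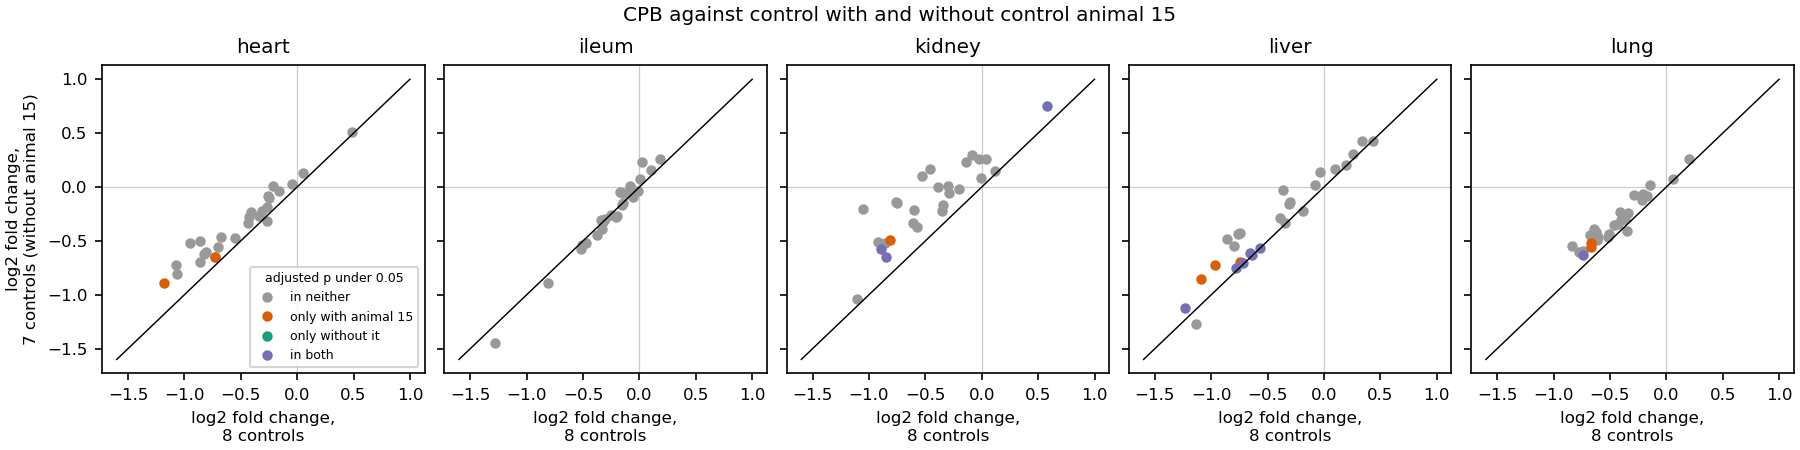
Log2 fold change of the 27 genes for CPB against control with 8 controls (x axis) and with 7 controls, without animal 15 (y axis), 1 panel per organ, with the line of equal values. Colour marks the genes with an adjusted p under 0.05 with both sets, with 1 of them or with neither. In kidney most points lie above the line (median -0.46 with 8 controls and -0.14 with 7).

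In ileum 0 genes were called by edgeR's quasi-likelihood F test, with 3 at an unadjusted p under 0.05, and DESeq2 called 0 of the 27. Over all 17869 genes tested in ileum edgeR called 0 and 932 (5.22%) had an unadjusted p under 0.05. The 3 were JAK2 (-0.47 ± 0.15, adjusted p = 0.755), ERAP1 (-0.52 ± 0.21, adjusted p = 0.914) and PSMB10 (-0.51 ± 0.23, adjusted p = 0.947). The spread between ileum libraries was the widest of the 5 organs, with a biological coefficient of variation of 0.5256 against 0.339 to 0.365 in the others. Ileum IRF1 values of 115 to 531 CPM (median 278) in CPB animals and 223 to 527 CPM (median 329) in controls show the overlap.

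Across organs, 16 of the 27 genes had a fold change below 0 in all 5 organs and 19 in the 4 without ileum. Of the 13637 genes tested in every organ 12.7 and 19.9% did so. With animal 15 left out of the controls these were 11 and 15 of the 27, against 12.1 and 19.5% of 13567 genes. Called lower in 2 organs were 6 genes: IRF1 in heart and liver, CIITA in kidney and liver, ERAP1 in heart and lung, SLA-DMA in kidney and liver, SLA-DMB in liver and lung, and SLA-DOA in kidney and liver. With 7 controls, animal 15 left out, 1 gene was called lower in more than 1 organ, CIITA. A call in one organ and not in another does not show that the organs differ, so the difference of the CPB effect among the 5 organs was tested itself, over all 95 libraries. That fit did not pair the organs of an animal and took them as separate libraries. By edgeR's quasi-likelihood F test 0 of 27 genes were called, against 12.9% of 20321 genes, and 2 had an unadjusted p under 0.05 (27.8% of all genes): IFNGR2 (adjusted p = 0.0735) and IFNGR1 (adjusted p = 0.159). All genes called numbered 2628, and 2015 to 3167 over 4 other settings, the animal as a block among them. With the animal as a block, IFNGR2 was called, with an adjusted p of 0.0187, and it was also called without CPB animal 19 (adjusted p = 0.0333) or without control animal 15 (adjusted p = 0.0199). The next smallest adjusted p without the block were 0.246 (JAK2), 0.271 (CIITA), 0.291 (NLRC5) and 0.311 (IRF1).

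The second comparison asks what linrodostat added to CPB. It called 0 of the 27 genes in any organ. Of all genes edgeR called 0.772% in liver and 0% in heart, ileum, kidney and lung, and DESeq2 called 0 of the 27 in every organ. An unadjusted p under 0.05 was found for 0 of the 27 in heart (6.05% of all genes), 2 in lung (2.59%), 2 in ileum (9.18%), 1 in liver (8.42%) and 1 in kidney (4.66%). The median log2 fold change of the 27 was -0.31 in lung, -0.22 in kidney, -0.21 in liver, -0.11 in ileum and -0.04 in heart, where that of all genes reached at most 0.06. No left-out animal gave a call, linrodostat animal 18 included. In lung all 27 were below 0, where 52.7% of all genes were. The genes with an unadjusted p under 0.05 were TAPBP (-0.52 ± 0.23, adjusted p = 0.501) and PSME1 (0.40 ± 0.19, adjusted p = 0.538) in ileum, IFI30 in kidney (-0.59 ± 0.27, adjusted p = 0.998), B2M in liver (-0.54 ± 0.24, adjusted p = 0.559), and SLA-DMA (-0.58 ± 0.21, adjusted p = 1.00) and PSME1 (-0.42 ± 0.19, adjusted p = 1.00) in lung. Lung SLA-DMA stood at 86.9, 93.6, 87.5 and 56.9 CPM in linrodostat animals 12, 18, 20 and 24 and at 74.1 to 174 CPM (median 120.3) in the CPB animals, so that the groups overlapped. Animal 18 was the highest of the linrodostat arm for most genes, for example TAP1 in heart with 46.0, 111, 24.4 and 23.3 CPM in the 4 animals. A p that misses the threshold with 4 animals in 1 arm does not show that the arms act alike.

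Linrodostat with CPB against control shares its control libraries with the first comparison, so the values of both stand side by side and are not independent. Lower were 7 of 27 genes in kidney (8.27% of all genes), 5 in liver (8.88%), 5 in lung (1.28%), 0 in heart (0.96%) and 0 in ileum (0.0616%). The median log2 fold change was -0.69 in lung, -0.63 in heart, -0.61 in kidney, -0.56 in liver and -0.37 in ileum. With animal 15 left out of the controls these medians were -0.56, -0.51, -0.32, -0.39 and -0.32. The medians over all genes, with all controls, lay between -0.04 (kidney) and 0.02 (ileum). Higher was 1 in kidney, IFNGR2 (11.7%), and 0 in heart (1.08%), ileum (0.151%), liver (12.9%) and lung (1.06%). In heart and ileum, 6 and 3 genes had an unadjusted p under 0.05 (15.8 and 13.8% of all genes) and DESeq2 called 0 in both. Without control animal 15 the number lower was 7 in kidney (8.34% of all genes), 5 in lung (1.12%), 3 in liver (7.25%), 0 in heart (0.521%) and 0 in ileum (0%). These counts rest on single linrodostat animals: the number lower was 1 in kidney without animal 12, 2 in liver without animal 20 or 24, and 0 in lung without animal 24 but 14 without animal 18. The genes called over the whole table in either direction then numbered 2287 in kidney, 2762 and 1857 in liver, and 86 and 448 in lung, where all animals gave 3527 in kidney, 3358 in liver and 419 in lung.

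In lung, class II genes made up 3 of the 5. The values that follow are those of linrodostat animals 12, 18, 20 and 24 in this order. SLA-DMB was at 152, 139.6, 125 and 93.6 CPM, against 199 to 449.5 CPM (median 236) in controls (-1.06 ± 0.22, adjusted p = 0.0170). SLA-DMA was at 86.9, 93.6, 87.5 and 56.9 CPM, against 128 to 236 CPM (median 167) (-1.09 ± 0.21, adjusted p = 0.0119), and SLA-DOA at 26.9, 35.8, 20.2 and 15.7 CPM, against 45.5 to 111 CPM (median 56.1) (-1.33 ± 0.32, adjusted p = 0.0314). For all 3 the groups did not overlap. Also lower in lung were ERAP1 (-0.93 ± 0.22, adjusted p = 0.0283), at 48.9, 59.4, 31.0 and 39.9 CPM, and PSMB10 (-0.98 ± 0.23, adjusted p = 0.0313), at 54.9, 82.9, 54.8 and 45.3 CPM. PSMB10 overlapped with the controls through animal 18. In lung 5 of the 27 genes did not overlap with the controls, all lower (2.11% of all genes). These were SLA-DMA, SLA-DMB, SLA-DOA, ERAP1 and CD74. CD74, at 4753, 4573, 3885 and 2825 CPM against at least 5078 CPM in controls, was not called.

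In kidney, class II genes made up 4 of the 7 lower. SLA-DOA was at 7.61, 13.4, 10.1 and 9.78 CPM (-1.34 ± 0.32, adjusted p = 0.00654), CIITA at 17.1, 31.8, 27.3 and 16.5 CPM (-0.997 ± 0.26, adjusted p = 0.0119) and ERAP1 at 31.5, 32.2, 29.8 and 31.2 CPM (-0.83 ± 0.26, adjusted p = 0.0273). These 3 lay below all 8 controls (3.78% of all genes did). SLA-DMA at 14.7, 25.0, 14.7 and 11.4 CPM (-1.26 ± 0.35, adjusted p = 0.0160) and SLA-DMB at 22.9, 37.2, 19.6 and 14.6 CPM (-1.26 ± 0.42, adjusted p = 0.0410) were lower with overlap, as were NLRC5 at 15.5, 32.4, 15.4 and 12.2 CPM (-1.44 ± 0.43, adjusted p = 0.0236) and CD74 at 682, 871, 854 and 537 CPM (-0.98 ± 0.31, adjusted p = 0.0329). IFNGR2 was at 38.7, 47.8, 38.3 and 32.5 CPM in kidney, higher by 0.65 ± 0.22, adjusted p = 0.0405. That call held in 13 of 24 alternatives.

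In liver IRF1 was at 12.0, 37.0, 18.8 and 14.4 CPM against 39.6 to 96.8 CPM (median 65.7) in controls, all 4 below all 8 (-1.65 ± 0.37, adjusted p = 0.00490; without control animal 15 -1.54, adjusted p = 0.00951). SLA-DMA at 9.84, 12.7, 10.6 and 5.83 CPM (-0.86 ± 0.20, adjusted p = 0.00598) and SLA-DMB at 17.2, 17.2, 16.4 and 9.23 CPM (-0.74 ± 0.24, adjusted p = 0.0331) were also below all controls, and 4.92% of all genes were. CD74 at 391, 527, 420.5 and 301 CPM (-0.63 ± 0.19, adjusted p = 0.0227) and TAP1 at 24.8, 74.3, 39.7 and 22.9 CPM (-1.27 ± 0.42, adjusted p = 0.0381) overlapped with them. With animal 15 left out of the controls the calls of SLA-DMB (-0.71, adjusted p = 0.0535) and TAP1 (-1.01, adjusted p = 0.0732) in liver were lost.

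Other genes of the pathway, from lists given by name, gave calls in both directions in CPB against control. Of 24 further interferon gamma pathway genes tested (23 in heart), 2 were lower and 1 higher in heart, 0 and 0 in ileum, 2 and 2 in kidney, 4 and 2 in liver and 4 and 0 in lung. With 7 controls, animal 15 left out, these were 0 and 1, 0 and 0, 1 and 2, 2 and 2, and 4 and 0. With all controls 5.53, 0, 9.86, 11.3 and 2.62% of all genes tested were lower in heart, ileum, kidney, liver and lung. The shares higher were 6.39, 0, 11.3, 15.6 and 2.08%. The counts in heart and kidney are near these shares, and the number higher in liver is under its share. IFNG itself was scarce: it was not tested in heart and had 0.0962 ± 0.0713 CPM in the CPB animals and 0.301 ± 0.178 CPM in the control animals in liver (-1.58 ± 0.67, adjusted p = 0.0875), 0.919 ± 0.914 CPM in the CPB animals and 1.96 ± 2.07 CPM in the control animals in lung (-1.08 ± 0.69, adjusted p = 0.384) and 2.93 ± 1.63 CPM in the CPB animals and 2.85 ± 1.32 CPM in the control animals in ileum. SOCS1, the feedback inhibitor of JAK kinases, was lower in heart, with 3.18 ± 1.38 CPM in the CPB animals and 6.45 ± 1.92 CPM in the control animals (-1.02 ± 0.29, adjusted p = 0.0274). CXCL10, a chemokine that draws T cells, was lower in liver (-2.22 ± 0.68, adjusted p = 0.0228). PTPN6, a phosphatase of blood cells, was lower in kidney (-0.84 ± 0.21, adjusted p = 0.00848), liver (-1.07 ± 0.17, adjusted p = 0.000373) and lung (-1.01 ± 0.17, adjusted p = 0.00379), and CASP1 in liver (-1.51 ± 0.37, adjusted p = 0.00615) and lung (-1.55 ± 0.29, adjusted p = 0.00680). Higher were STAT3 in heart (0.66 ± 0.15, adjusted p = 0.00755) and GCH1, which starts tetrahydrobiopterin synthesis, in kidney (0.88 ± 0.20, adjusted p = 0.00591) and liver (1.95 ± 0.45, adjusted p = 0.00469). Without control animal 15 the calls of SOCS1 in heart (-0.90, adjusted p = 0.0613) and CXCL10 in liver (-1.37, adjusted p = 0.0745) were lost, while PTPN6, CASP1, STAT3 and GCH1 kept theirs in each organ named. IDO1, the target of linrodostat and itself an interferon gamma gene, was not called in any organ and lay between -0.26 in ileum and 0.35 in liver.

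Of 26 further antigen presentation genes, 2 were lower and 2 higher in heart, 0 and 0 in ileum, 3 and 3 in kidney, 5 and 4 in liver and 5 and 0 in lung, with medians of 0.02, -0.04, -0.15, -0.06 and -0.14. In the same order 5.53, 0, 9.86, 11.3 and 2.62% of all genes tested were lower and 6.39, 0, 11.3, 15.6 and 2.08% higher. The counts in heart and kidney and the number higher in liver are near these shares. Without control animal 15 the numbers lower and higher were 1 and 2, 0 and 0, 1 and 3, 2 and 3, and 5 and 0. ERAP2, the partner of ERAP1, was lower in heart (-1.08 ± 0.30, adjusted p = 0.0228), liver (-1.19 ± 0.34, adjusted p = 0.0165) and lung (-0.97 ± 0.21, adjusted p = 0.0150). MR1, which presents vitamin B metabolites to T cells, was lower in kidney (-1.46 ± 0.43, adjusted p = 0.0223) and lung (-0.75 ± 0.14, adjusted p = 0.00723), and CD1D, which presents lipids, in liver (-1.37 ± 0.26, adjusted p = 0.00113) and lung (-0.91 ± 0.23, adjusted p = 0.0286). Higher were PSME3, the nuclear proteasome activator, in kidney (0.41 ± 0.10, adjusted p = 0.00897) and liver (1.01 ± 0.16, adjusted p = 0.000367), the proteasome assembly factor POMP in both (0.62 and 0.61), and the lysosomal proteases LGMN and CTSL in heart (0.68 and 1.39). Of the genes named, MR1 in kidney lost its call without control animal 15 (-1.002, adjusted p = 0.0526) and the others kept theirs, ERAP2 in heart narrowly (-0.89, adjusted p = 0.0496). Of 28 type I interferon response genes 7 were lower in liver, 3 in heart, 3 in kidney, 2 in lung and 0 in ileum, and 0 were higher. The count in kidney is near the share of all genes lower there (9.86%). The medians of the 28, -1.14, -1.30, -1.28, -1.26 and -0.19 in that order, became -0.57, -0.79, -0.51, -0.78 and 0.02 without control animal 15. The number lower became 2, 1, 0, 2 and 0, where 9.44, 4.44, 9.19, 2.12 and 0% of all genes were lower. In liver, heart and kidney these counts are not above the shares.

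Of 16 monocyte and macrophage markers, 8 were lower in liver, 8 in lung, 7 in kidney and 0 in heart and ileum, while 2 were higher in heart, 1 in liver and 0 in the other 3 organs. Of all genes tested 11.3, 2.62 and 9.86% were lower in liver, lung and kidney, and 6.39 and 15.6% higher in heart and liver. The summed level of these markers in liver was 1529 to 3060.3 CPM (median 2183) in controls, 1337 to 1926 CPM (median 1521) in CPB animals and 1279 to 1575 CPM (median 1501) with linrodostat. In lung it was 8838 to 14716 CPM (median 9590.4), 3709.5 to 9136 CPM (median 7244) and 4851 to 8562 CPM (median 6379), and in kidney 343 to 2650.3 CPM (median 649), 274 to 653 CPM (median 407) and 208 to 446 CPM (median 418). With 7 controls the number lower was 3 in kidney, 9 in lung and 8 in liver, and the number higher 2 in kidney, 2 in heart and 0 in lung and liver. In heart the 2 higher markers were CD163 (1.22 ± 0.31, adjusted p = 0.0145) and CD14 (0.72 ± 0.19, adjusted p = 0.0167).

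B and plasma cell markers were lower for 8 of 11 in liver, 5 of 11 in lung and 2 of 11 in kidney (8, 4 and 1 without control animal 15), with sums in liver of 30.6 to 50.5 CPM (median 42.2) in controls and 17.2 to 46.1 CPM (median 25.5) in CPB animals. In liver the linrodostat arm of 4 animals gave other counts. Against CPB 3 of these 11 were higher (0.759% of all genes) and 0 lower, with a median log2 fold change of 1.21. All genes called in that comparison numbered 119, and 1 to 137 with 1 animal left out. Whether the 3 markers kept their calls then was not tested. Against control 1 of the 11 was lower (8.88% of all genes) and 0 higher, with a median of 0.39. In CPB against control, T and NK cell markers were lower for 6 of 19 rows in liver, 2 without control animal 15, and for 0 in the other organs. Neutrophil markers were higher for 1 of 6 in kidney, 3 of 6 in liver and 3 of 6 in lung, and 0 were lower. Of 12 endothelial markers 2 were lower and 2 higher in kidney, 3 and 0 in liver, 2 and 1 in lung, and 0 and 0 in heart and ileum. Without control animal 15 the number of endothelial markers higher in lung was 0, and the other endothelial counts were the same. Dendritic cell markers were lower for 1 of 8 tested in heart, kidney and liver each and for 0 in ileum and lung (without control animal 15, 0 in heart and 1 in kidney and liver). Among all genes tested 5.53, 9.86, 11.3 and 2.62% were lower in heart, kidney, liver and lung. Higher were 6.39, 11.3, 15.6 and 2.08% in the same order. The dendritic cell counts in kidney and liver and the endothelial counts in kidney are near these shares. None of the 16 macrophage, 11 B cell or 19 T and NK cell markers was at 0 in all libraries of any organ, and of the dendritic cell markers CLEC10A was at 0 in heart, ileum and kidney. The part of these cells in the results above was not tested.

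For each organ the genes most like the mean z score of the 27 were found among named genes that are not members, as Pearson correlations over 19 libraries. The libraries span 3 arms and share control animal 15, so the values are a description. In kidney they were CALHM6 (0.96), FCER1G (0.953), UBD (0.945), IFI35 (0.94) and NMI (0.937), and in lung TAPBPL (0.951), BATF2 (0.948), HLA-DRA (0.942), SAMD9 (0.939) and NMI (0.939). HLA-DRA is an MHC class II gene under a human name. It is 1 of 2 rows of the deposited data whose symbol begins with HLA-, which the rule on names does not take in. Heart had IFI35 (0.938), GIMAP4 (0.936), CD2 (0.932), CTSW (0.925) and FCER1G (0.923). Liver had NFKBIE (0.899), CXCL10 (0.895), ERAP2 (0.894), UNC93B1 (0.885) and BIRC3 (0.885), and ileum CD52 (0.876), SOCS1 (0.872), TAPBPL (0.864), GPR31 (0.852) and CXCL9 (0.851).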

How the data were processed

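RNA was sequenced from 95 libraries, 5 organs of 19 pigs, in 3 arms taken from the labels. The deposited table holds expected counts per gene; the submitters' processing notes name Salmon, STAR, MultiQC, cutadapt, Trim Galore and bcl2fastq and the Sscrofa11.1 assembly, and 92.7 to 96.6% of values in a library, zeros included, are whole within 1e-09 (88.2 to 92.6% of those above 0). The expected counts were rounded to whole numbers. Of the 35670 rows, 17508 carry a symbol, a table of gene IDs named 223 more, and 17939 are known by ID alone. The members and lists were chosen with earlier results of these data known.

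In each organ the 3 arms were fitted together with edgeR 4.0.16 (R 4.3.3; low-count filter by arm, TMM scaling, quasi-likelihood F test, 2-sided, Benjamini-Hochberg adjustment over all genes tested, threshold 0.05). CPM values are TMM-scaled within an organ. Control organs and the difference of the CPB effect among organs were fitted over all 95 libraries, whose CPM were scaled across organs and so differ from the values within an organ. The z scores use log2 CPM with a prior count of 2. Libraries held 19956859 to 53627723 counts. The fit was tested on simulated data.

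Animals of an arm are separate animals. Across organs the animal number pairs libraries of 1 animal per the labels: over 10 pairs of organs and 13637 genes the median correlation of deviations from the arm means was 0.13 to 0.30, and the lowest for a single animal -0.13. The alternatives tried were DESeq2 1.42.0, no filter on low counts, size factors by relative log expression, only the arms compared, sex as a covariate, the animal as a block, no heart, and each animal left out. Leaving out control animals in the organ comparison was added after seeing the data.

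The genes named are the up to 8 members with the smallest p past the threshold in a comparison with at least 2 CPM in the higher group, a fixed set of 8 (IRF1, PSMB9, TAP1, B2M, NLRC5, CIITA, CD74, IFNGR1), and up to 3 genes per list and organ; others named from the lists were chosen after their values were seen. No sequences are printed, and 1 gene of the pathway lists is not reported here.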

Additional observations from a re-analysis of the deposited data

Results flagged for a closer look

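In these results the highest or lowest library of an arm lay far from the others by Dixon's test, whose gap was compared with the 95% critical value. Of 405 groups of 4 to 8 libraries tested (27 genes in 5 organs and 3 arms), 68 (16.8%) were past it. The groups share animals and are not independent, and the test was run on CPM without logs. The share is therefore a description, with no chance level to set it against. The genes listed are the fixed set named in the processing and the mean z score over the 27 genes.

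Control animal 15 was the far library in most cases. In kidney it had 4431 CPM of B2M, 3194 CPM of CD74, 89.3 CPM of CIITA, 172 CPM of IRF1, 127 CPM of NLRC5, 112 CPM of PSMB9 and 642 CPM of TAP1, and its mean z score over the 27 genes was 2.43. In lung it had 9190.2 CPM of CD74, 401 CPM of IRF1, 195 CPM of PSMB9 and 943 CPM of TAP1. In heart it had 82.2 CPM of IRF1, 49.6 CPM of PSMB9 and 269.9 CPM of TAP1. In liver and ileum the animal was past it for none of the 8 genes or the score, but in liver it was for ERAP1, GBP1, GBP2 and PSMB10.

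In the CPB arm animal 2 was highest in ileum for NLRC5 (161 CPM) and TAP1 (1193 CPM) and had the lowest mean z score in kidney (-1.25), and animal 19 was highest in heart for IFNGR1 (64.3 CPM). In the linrodostat arm animal 18 was highest for NLRC5 in kidney (32.4 CPM) and for PSMB9 (75.6 CPM) and TAP1 (377 CPM) in lung. Control animal 4 was lowest for IFNGR1 in liver (11.12 CPM).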

How the results depend on the processing

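No direction of a called gene was reversed in any alternative run. DESeq2 gave more members in CPB against control: 5 lower and 1 higher in heart, 7 lower in kidney and 7 lower in lung. In linrodostat against control it gave 11 lower in liver and 16 lower in lung. Without the low-count filter CPB against control gave 0 lower in heart and 1 in lung, and with only the compared arms 5 in heart and 1 in lung. The cause of these shifts was not tested.

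With the animal as a replicate block the CPB effect among organs called 1 member (IFNGR2) and control lung was lower for 1 (PSME1), and the block changed no other count of members by over 1.5 times.

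Leaving out 1 animal at a time, members called ran from 0 to 1 for the CPB effect among organs (1 without CPB 19 or control 15). In CPB against control they ran from 0 to 5 lower (5 without linrodostat 18; 0 without CPB 2, CPB 19, CPB 25 or control 15) and 0 to 1 higher in heart, 2 to 5 lower and 0 to 1 higher in kidney, and 0 to 6 lower in lung (0 without CPB 19 or CPB 25). In linrodostat against control they ran from 0 to 2 lower in heart, 1 to 8 lower and 0 to 1 higher in kidney, 2 to 10 lower and 0 to 1 higher in liver, and 0 to 14 lower in lung.

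Over all genes, DESeq2 called 16 in ileum for CPB against control (edgeR 0), 1731 in lung (edgeR 840), and for linrodostat against control 833 in ileum (edgeR 38), 693 in heart (edgeR 304) and 1107 in lung (edgeR 419). For linrodostat against CPB it called 208 in liver (edgeR 119), 97 in ileum, 16 in heart, 4 in kidney and 3 in lung (edgeR 0 in these 4). The 38 in ileum became 72 with relative log expression size factors and 0 without the filter, with only the compared arms or with sex as a covariate, and the 419 in lung became 278 without the filter. Summing class I rows and promoter motifs were not run.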
